A study of Mus musculus with 2 samples.

Results

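The transcription factors that steer lymphocytes toward memory, effector function or exhaustion were examined in 2 single-cell libraries of immune cells from B16 tumours, a mouse melanoma model. The 10 genes were Tcf7, Lef1, Tox, Eomes, Tbx21, Prdm1, Id2, Id3, Bcl11b and Klf2. They were chosen by gene symbol, and each matched 1 row of the 31053 genes of the deposited matrix. One library was labelled WT (Mettl3 fl/fl Lyz2 +/+) and the other KO (Mettl3 fl/fl Lyz2 cre/+), so both carried floxed Mettl3 alleles, which encode an RNA m6A methyltransferase, and the KO animals also carried Cre under the Lyz2 locus. Lyz2-Cre acts in macrophages, monocytes and granulocytes, and the T and NK cells described here were not its intended target. The C57BL/6 mice were 8 weeks old, co-housed littermates served as controls, and each library held the pooled live CD45+ cells of several mice, so no value below has a spread between animals.

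Transcripts were counted as unique molecular identifiers (UMIs, 1 per captured molecule), of which there were 45963969 over 5895 barcodes labelled WT and 54052317 over 8446 barcodes labelled KO. The 2 libraries shared 13 barcodes, and no class used here held more than 1 of them per library except macrophages and B cells. Mettl3 itself, read in the macrophage class, stood at 10.4 CPM (its UMIs per 1000000 summed UMIs) in the library labelled WT (95% Poisson interval 8.86 to 12.2) and at 10.7 CPM in that labelled KO (9.15 to 12.4). Only the transcript's 3′ end was counted and the position of the floxed exons is not given in the sources used here, so this level is no check of the deletion. Summed UMIs of a class were expressed as CPM throughout, and all intervals cover counting error only.

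Lymphocytes were sorted into 4 classes by marker UMIs, with none of the 10 factors used in a gate. CD8 T cells had at least 2 UMIs of the T cell receptor complex (Cd3d, Cd3e, Cd3g, Trac) and a Cd8a or Cd8b1 UMI without Cd4. CD4 T cells had Cd4 without a CD8 UMI, cycling T cells had at least 3 UMIs of 15 cell cycle genes, and NK cells had at least 2 UMIs of receptors such as Ncr1 and Klrb1c with no T marker. The library labelled WT gave 260 CD8 T, 64 CD4 T, 74 NK and 126 cycling T cells, and that labelled KO gave 246, 95, 166 and 157. Cycling T cells were the deepest, with a median of 8940 and 9291 UMIs per cell in the libraries labelled WT and KO, against 2495 and 1922 in CD8 T cells. They were mostly CD8 cells: 84.1% (exact binomial 95% interval 76.6 to 90.0) and 73.2% (65.6 to 80.0) had a CD8 UMI and no Cd4. NK markers, which the T gates did not use, summed to between 0 and 121 CPM in the T classes, while in the NK class, gated on them, they reached 2686 and 2619 CPM. Macrophage markers remained at 233 to 396 CPM in the 4 classes, against 10107 and 10283 CPM in macrophages. Of 931 and 1007 barcodes with at least 2 T marker UMIs in the libraries labelled WT and KO, 314 and 275 were left out for markers of other lineages.

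T cells responding to a tumour follow alternative programmes. TCF-1 (Tcf7) and LEF-1 (Lef1) are related HMG-box factors of naive and memory T cells, Klf2 keeps cells recirculating through the genes of homing receptors, and Id3 is an inhibitor of E proteins found with them. T-bet (Tbx21) and Eomes are T-box factors of effector and memory lymphocytes and of NK cells, Blimp-1 (Prdm1) and Id2 accompany effector differentiation, and Tox is the factor best known for sustaining the exhausted state under lasting antigen. Bcl11b specifies T cell identity and is required to keep developing cells from the NK lineage.

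The promoters were searched for short motifs named after the families of the members. RefSeq windows around annotated starts (GRCm38.p6) were found for 9 of the 10 genes, 13 windows in all. The TCF/LEF core CTTTGA (reverse TCAAAG) was searched on both strands. It lay in 2 of the 13 windows, of Lef1 and Bcl11b, against 16% of all 32851 windows of the same length. That is close to the share over all windows. The KLF motif CCACACCC (reverse GGGTGTGG) lay in 1 of the 13 windows, of Tcf7, against 3.56% of all windows. The palindromic E-box CAGCTG lay in 4 of the 13, of Tcf7, Lef1, Tbx21 and Id2, against 16.3%. The windows with a TCF/LEF or KLF match are shown because Tcf7, Lef1, Klf2 and Bcl11b are among the members that were lower together in a CD8 T cell subset described below, with the matched letters in capitals. The Lef1 window, chr3:131156044-131156343 on the + strand, lies inside the annotated gene (chr3:131110471-131224356) and holds 2 matches. On the − strand, the Tcf7 window chr11:52282546-52282845 lies inside its gene (chr11:52252371-52283014), and the Bcl11b window chr12:108003365-108003664 spans the annotated start of its gene (chr12:107910403-108003602).
Lef1: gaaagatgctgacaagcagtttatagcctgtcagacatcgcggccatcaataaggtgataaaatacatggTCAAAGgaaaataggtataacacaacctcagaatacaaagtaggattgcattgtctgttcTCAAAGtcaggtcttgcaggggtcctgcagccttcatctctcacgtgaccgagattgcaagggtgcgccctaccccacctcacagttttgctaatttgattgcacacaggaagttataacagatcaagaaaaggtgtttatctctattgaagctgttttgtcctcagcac
Tcf7: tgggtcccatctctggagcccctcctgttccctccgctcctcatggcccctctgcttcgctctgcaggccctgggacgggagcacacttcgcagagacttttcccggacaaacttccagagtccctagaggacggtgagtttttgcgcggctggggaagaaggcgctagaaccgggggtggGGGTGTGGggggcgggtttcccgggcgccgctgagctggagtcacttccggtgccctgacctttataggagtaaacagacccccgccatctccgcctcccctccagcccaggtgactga
Bcl11b: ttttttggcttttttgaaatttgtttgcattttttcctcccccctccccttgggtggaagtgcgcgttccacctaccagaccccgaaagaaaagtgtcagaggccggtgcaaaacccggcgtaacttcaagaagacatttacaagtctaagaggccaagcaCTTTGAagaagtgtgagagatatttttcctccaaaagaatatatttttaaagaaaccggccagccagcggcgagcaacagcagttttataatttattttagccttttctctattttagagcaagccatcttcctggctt
Counted from the RefSeq transcript start on which each window was built, the first base of the match lay 180 and 120 bases before it for Lef1, 69 bases for Tcf7 and 89 bases for Bcl11b. These RefSeq starts lie inside the annotated genes, and so do the matches. These matches describe letters, not bound sites, and 3′ counting does not tell the starts of a gene apart.

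Tcf7 was present in CD8 T, CD4 T and NK cells and scarce in cycling T cells. It stood at 114 CPM (95% Poisson interval 93.0 to 137) in CD8 T cells of the library labelled WT and 151 (124 to 182) in that labelled KO, at 214 and 196 CPM in NK cells, and at only 12.6 and 2.66 CPM in cycling T cells. In CD4 T cells the libraries did not match: 210 CPM (146 to 292) and 80.5 (51.5 to 120). NK cells were above CD8 T cells in both libraries, CD4 T cells overlapped each of them, and only cycling T cells lay below the rest in both libraries. A Tcf7 UMI was seen in 25.4% and 28.9% of CD8 T cells. Macrophages, which should lack the gene, had one in 0.789% and 0.628% of cells at a median of 10020 and 7135 UMIs, far deeper than the T cells. With every cell thinned to 1000 UMIs the shares were 12.4% and 15.4% in CD8 T cells against 0.159% and 0.115% in macrophages.

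Lef1, the relative of Tcf7, was scarce. It stood at 30.8 and 29.3 CPM in CD8 T cells of the libraries labelled WT and KO, 24.0 and 26.8 in CD4 T cells, 49.3 and 23.8 in NK cells and 14.7 and 11.2 in cycling T cells. Counts were small, with 29 and 21 UMIs in CD8 T cells, and 4 and 8 in CD4 T cells. NK and CD8 T values overlapped between libraries, and cycling T cells were lowest. Klf2 was at 312 and 259 CPM in NK cells, 173 and 184 in CD8 T cells, 126 and 158 in CD4 T cells and 23.2 and 28.2 in cycling T cells, with no overlap between neighbours in that order. It was not a lymphocyte gene alone, since granulocytes held 705 and 855 CPM and B cells 451 and 401. Id3 was at 28.6 and 22.3 CPM in CD8 T cells and 24.0 and 36.9 in CD4 T cells, which overlapped. In NK cells it rested on 2 and 1 UMIs, and in cycling T cells it was at 8.43 and 5.32 CPM. B cells held more of it, 230 and 77.1 CPM.

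Tox was a gene of the CD8 and cycling classes. Its levels were 201 and 138 CPM in CD8 T cells and 198 and 141 in cycling T cells, which overlapped, then 84.0 and 53.6 in CD4 T cells and 43.8 and 50.2 in NK cells. Up to 13 Tox UMIs were counted in 1 cycling T cell, while macrophages held 0.332 and 0.443 CPM. Prdm1 was alike in the T classes, at 79.3 and 88.9 CPM in cycling T cells, 90.0 and 77.1 in CD4 T cells and 87.0 and 69.8 in CD8 T cells, all of which overlapped, and was lower in NK cells at 27.4 and 47.6. It was also present in B cells (44.8 and 107 CPM), which can include antibody-secreting cells that use Blimp-1, and in macrophages (21.8 and 24.7 CPM). Id2 was abundant in every class, from 1551 and 1377 CPM in NK cells through 1338 and 1123 in CD4 T cells and 1021 and 973 in CD8 T cells to 662 and 634 in cycling T cells, with no overlap between neighbours. Dendritic cells held 734 and 816 CPM of Id2, a gene their development requires.

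The T-box factors were highest in NK cells and Bcl11b in T cells. Eomes reached 367 and 264 CPM in NK cells, 107 and 112 in CD8 T cells and 49.9 and 51.1 in cycling T cells. CD4 T cells had an Eomes UMI in 0 of 64 cells of the library labelled WT, which allows a UMI in up to 4.69% of such cells and a level of up to 18.0 CPM (3 counts). The share of cells that express the gene is not limited by this count. The library labelled KO had 2 Eomes UMIs in CD4 T cells. Tbx21 reached 104 and 143 CPM in NK cells, 54.1 and 51.6 in CD8 T cells, 40.0 and 52.2 in cycling T cells and 36.0 and 46.9 in CD4 T cells. CD8 T cells were above CD4 T cells in both libraries, and cycling T cells overlapped each of them. Bcl11b ran the other way: 384 and 298 CPM in CD4 T cells, 191 and 243 in CD8 T cells, 85.0 and 117 in cycling T cells, and only 16.4 and 7.93 in NK cells, where it rested on 3 UMIs per library. Its 4 classes did not overlap. B cells held no Bcl11b UMI in either library.

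**Figure D1:**
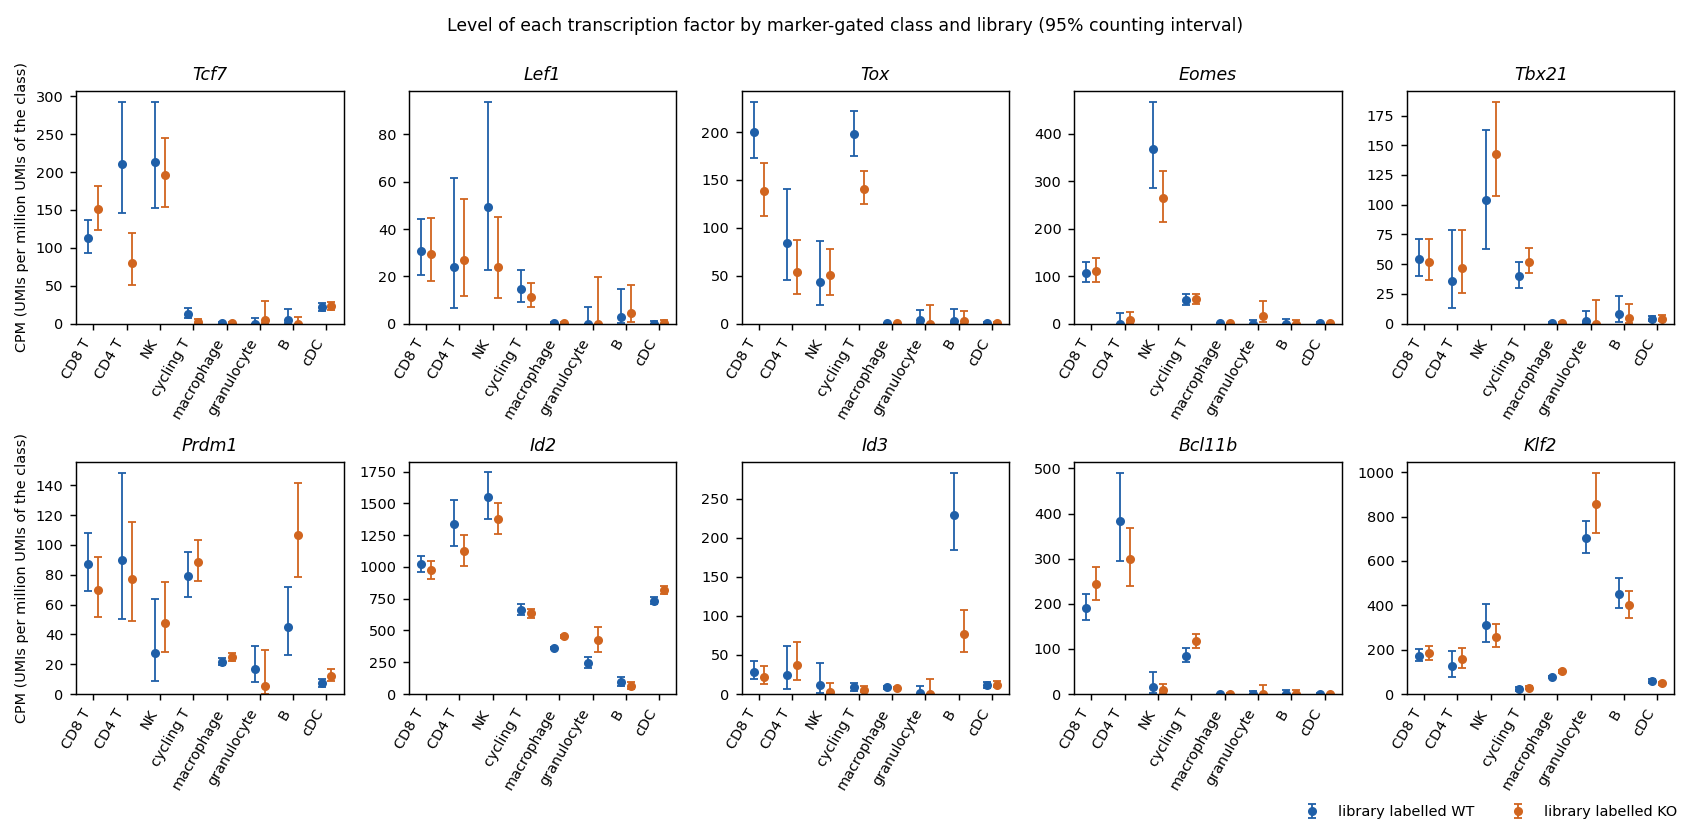
Level of each of the 10 factors (vertical axis, CPM, linear, a separate scale per gene) in 8 marker-gated classes (horizontal axis) of the library labelled WT (blue) and that labelled KO (orange), 1 point per library with its 95% Poisson interval. Tcf7 and Klf2 sit lowest in cycling T cells among the lymphocytes of the T and NK classes, Bcl11b is near 0 outside the T classes, and Klf2 is highest in granulocytes at 705 and 855 CPM.

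CD8 T cells were set against CD4 T cells to ask which factors separate the lineages. Eomes and Tox were higher in CD8 T cells, and no member was called lower. Summed UMIs per class and library were compared with edgeR's quasi-likelihood test with the library as a block, so that each comparison rests on 2 libraries. The edgeR test called 2 of 10 members at an adjusted p under 0.05, both higher, against 2.59% of the 7295 genes tested called higher, 1.41% lower and 4% in either direction. The log2 difference of Eomes was 4.73 ± 0.54 (SE), adjusted p = 2.44e-05 by edgeR, and rests on 2 UMIs in CD4 T cells. That of Tox was 1.46 ± 0.25, edgeR adjusted p = 0.00148, and it was higher in both libraries. With every cell thinned to 1000 UMIs the edgeR call of Tox was lost (adjusted p = 0.15). Bcl11b had a log2 difference of −0.49 ± 0.20 that did not pass (edgeR adjusted p = 0.247), although CD4 T cells were above CD8 T cells in both libraries. The median log2 difference of the members was 0.21, against 0.014 over all genes.

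Tcf7 gave opposite differences in the 2 libraries. CD8 T cells were at a log2 difference of −0.89 (95% counting interval −1.45 to −0.29) from CD4 T cells in the library labelled WT and of 0.91 (0.26 to 1.61) in that labelled KO. The libraries differed more in CD4 T cells than in CD8 T cells, as given below with the ratios between libraries. Among effector outputs, the genes that carry out killing and inflammation, 6 of 8 were higher in CD8 T cells by edgeR, led by perforin (Prf1, log2 4.44) and Ccl5 (3.43). Of 15 effector and exhaustion factors tested, 4 were higher, including Nr4a2 (3.25) and Nr4a3 (1.86), which respond to receptor signalling, and 2 were lower, Maf (−2.13) and Ikzf2 (−1.19), both known from regulatory and helper cells. None of 9 memory and naive factors was called by edgeR in this comparison. Of 6 inhibitory receptors 3 were higher, Lag3 (1.61), Pdcd1 (1.21) and Cd160, which had 0 and 1 UMIs in CD4 T cells against 51 and 39, and 1 was lower, Ctla4 (−2.51), and of 5 homing and memory surface genes 1 was lower, Itgb7 (−1.43).

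Against NK cells, CD8 T cells held more Bcl11b and Tox and less Eomes, Tbx21 and Id2. The edgeR test called 5 of 10 members, 2 higher and 3 lower, against 5.87% of all genes called in either direction, 3.02% higher and 2.85% lower. Bcl11b differed by 4.44 ± 0.39 on the log2 scale (SE, edgeR adjusted p = 3.55e-07) and Tox by 1.84 ± 0.26 (edgeR adjusted p = 9.32e-05). Eomes differed by −1.38 ± 0.20 (edgeR adjusted p = 0.000167), Tbx21 by −1.12 ± 0.25 (edgeR adjusted p = 0.0116) and Id2 by −0.44 ± 0.11 (edgeR adjusted p = 0.0218). The Id2 call was lost under 5 of 9 alternative settings, where its edgeR or DESeq2 adjusted p reached 0.924, and the Tbx21 call under 2 of 9, where it reached 0.189. Prdm1 had a log2 difference of 1.06 ± 0.32 just outside the threshold (edgeR adjusted p = 0.0574). Tcf7 was lower in CD8 T than in NK cells in both libraries, but its log2 difference of −0.55 ± 0.30 did not pass (edgeR adjusted p = 0.356). All 9 memory and naive factors were tested and 1 was called, Satb1, a chromatin organiser, at a log2 difference of −1.45. Of 15 effector and exhaustion factors 1 was higher, Nr4a2 (1.63), and 2 were lower, Nfil3 (−1.30) and Stat4 (−0.95). Of 8 effector outputs 3 were higher, led by Gzmk (3.0, on 1 and 4 UMIs in NK cells), and 2 were lower, Gzma (−4.08) and the cytokine receptor chain Il2rb (−1.24). Inhibitory receptors were higher in 5 of 6 cases, among them Havcr2, with 53 and 41 UMIs in CD8 T cells and 0 in NK cells of both libraries, Pdcd1, with 185 and 119 against 1 and 2, and Lag3 (3.86). Of 5 homing and memory surface genes 2 were higher, S1pr1 (2.03) and Il7r (1.47).

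Detection of Eomes beside Tcf7 was counted in both classes. In NK cells Eomes was seen more often in cells with a Tcf7 UMI, in 22 of 31 of them against 15 of 43 of the others in the library labelled WT, and in 26 of 45 against 40 of 121 in that labelled KO. After thinning to 1000 UMIs the shares were 7 of 19 against 9 of 53 and 12 of 31 against 30 of 124. In CD8 T cells Eomes showed no such excess, at 20 of 66 against 51 of 194 and 13 of 71 against 42 of 175. The cells of a library share their pool of animals, so these shares are descriptions.

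As a share of their UMIs, cycling T cells held less of 7 of the 10 members than noncycling CD8 T cells. Tcf7, Klf2, Id3, Lef1, Eomes, Bcl11b and Id2 were lower, and Tox, Tbx21 and Prdm1 were not called. The edgeR test called 7 of 10 members lower and 0 higher, against 13.3% of all genes called lower, 14.3% called higher and 27.6% in either direction. Tcf7 differed by −4.15 ± 0.38 on the log2 scale (SE, edgeR adjusted p = 2.86e-07), Klf2 by −2.75 ± 0.19 (edgeR adjusted p = 9.88e-09) and Id3 by −1.86 ± 0.41 (edgeR adjusted p = 0.00259). Lef1 (−1.17 ± 0.32), Eomes (−1.07 ± 0.20), Bcl11b (−1.06 ± 0.18) and Id2 (−0.59 ± 0.11) followed, all passing the edgeR test at adjusted p between 0.000287 and 0.0116. DESeq2 did not call Lef1, Id3 and Eomes, and thinning also removed the call of Eomes. Tox differed by 0.03 ± 0.16 (edgeR adjusted p = 0.908), and its 4 levels in the 2 classes overlapped between libraries.

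These are shares of a larger RNA pool, since cycling T cells held several times more UMIs than CD8 T cells. Counted per cell, only Tcf7 and Klf2 among the members were well below the noncycling level. Tcf7 went from 0.412 and 0.439 UMIs per CD8 T cell to 0.143 and 0.0318 per cycling T cell, and Klf2 from 0.627 and 0.537 to 0.262 and 0.338. Id3 was at 0.104 and 0.0650 UMIs per CD8 T cell and 0.0952 and 0.0637 per cycling T cell. Lef1, Eomes, Bcl11b and Id2, which were lower as CPM, were higher per cell, Id2 at 7.48 and 7.59 UMIs per cycling T cell against 3.70 and 2.83 per CD8 T cell. Tox was at 2.24 and 1.69 UMIs per cycling T cell against 0.727 and 0.402. Other memory and naive factors went the same way as Tcf7 on the CPM scale: 6 of 9 were lower by edgeR, including Bach2 (log2 −2.88), Satb1 (−2.29) and Foxp1 (−1.62), and 1 was higher, Myb (1.19). All 5 homing and memory surface genes tested were lower, including S1pr1 (−3.27), the egress receptor that Klf2 controls, and Il7r (−2.56). Effector outputs were lower in 4 of 8 cases and higher in 0 by edgeR, with Gzma at −2.93 and Ccl5 at −2.44. Of 15 effector and exhaustion factors 5 were lower, led by Zeb2 (−1.01), and 2 were higher, Ikzf2 (1.08) and Batf (0.71). Of 6 inhibitory receptors 2 were higher, Ctla4 (1.07) and Havcr2 (0.87), and 1 was lower, Cd160 (−0.95). All these calls are on the CPM scale, and not all of them held per cell. Zeb2 had 134 and 122 UMIs in 260 and 246 CD8 T cells. In 126 and 157 cycling T cells it had 110 and 139, so it was higher per cell. S1pr1, with 50 and 61 UMIs against 15 and 7 in cycling T cells, was lower per cell too.

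Noncycling CD8 T cells were divided by the transcripts of inhibitory checkpoint receptors, which mark activated and exhausted cells, to ask how the factors stood along that axis. The checkpoint subset held at least 2 UMIs of Pdcd1, Havcr2, Lag3, Tigit and Ctla4. It numbered 88 cells, 33.8% (28.1 to 39.95) of CD8 T cells, in the library labelled WT and 57 cells, 23.2% (18.0 to 29.0), in that labelled KO. The checkpoint-negative subset held none of these UMIs and numbered 148 and 152 cells, and 24 and 37 cells had exactly 1. Checkpoint cells were deeper, with a median of 3494 and 3587 UMIs against 2238.5 and 1566.5 in checkpoint-negative cells, and a cell of few UMIs more easily misses every receptor. With every cell thinned to 1000 UMIs, a check added after seeing the data, the checkpoint share was 13.2% (9.26 to 18.0) and 13.1% (8.97 to 18.3). Shallower cells, 10 and 25 in all, were left out by thinning, and these intervals are wide enough to hold a gap of the earlier ratio. NK markers summed to 102 and 153 CPM in checkpoint-negative cells and to 71.2 and 84.5 CPM in checkpoint cells. Macrophage markers were at 408 and 430 against 283 and 238 CPM. The part of other cell types in the differences below was not tested.

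Tcf7 was nearly absent from the checkpoint subset. It went from 239 and 313 CPM in checkpoint-negative cells of the libraries labelled WT and KO to 6.28 and 18.8 in the checkpoint subset, with 3 and 6 UMIs left there, and stood at 127 and 82.5 in cells with 1 checkpoint UMI. A Tcf7 UMI was seen in 39.9% and 39.5% of checkpoint-negative cells and in 2.27% and 5.26% of checkpoint cells. With every cell thinned to 1000 UMIs the shares were 21.1% and 22.7% against 1.15% and 3.51%. Lef1 had 29 and 18 UMIs in checkpoint-negative cells and 0 in the checkpoint subset of both libraries, which allows a summed level of up to 6.28 and 9.39 CPM (3 counts per library). Over both libraries it was at least 17.8-fold lower there, with 3 counts over the group as the floor. Klf2 went from 351 and 357 CPM to 23.0 and 31.3. Bcl11b went from 251.1 and 400 CPM to 132 and 100.2, and the subsets did not overlap in any of these genes.

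Tox rose while these fell. It went from 97.0 and 53.3 CPM in checkpoint-negative cells to 291 and 222 in the checkpoint subset, where 70.5% and 57.9% of cells held a Tox UMI. At 1000 UMIs per cell the shares were 12.7% and 5.30% against 24.1% and 21.1%. Prdm1 was at 52.2 and 59.99 CPM against 111 and 87.6, without overlap. Eomes (139 and 107 against 71.2 and 119 CPM) and Tbx21 (52.2 and 59.99 against 58.6 and 40.7 CPM) overlapped between the subsets. Id2 was at 1042 and 990 CPM against 944 and 886, and Id3 at 57.2 and 26.7 CPM against 4.19 and 21.9, the latter on 2 and 7 UMIs.

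**Figure D2:**
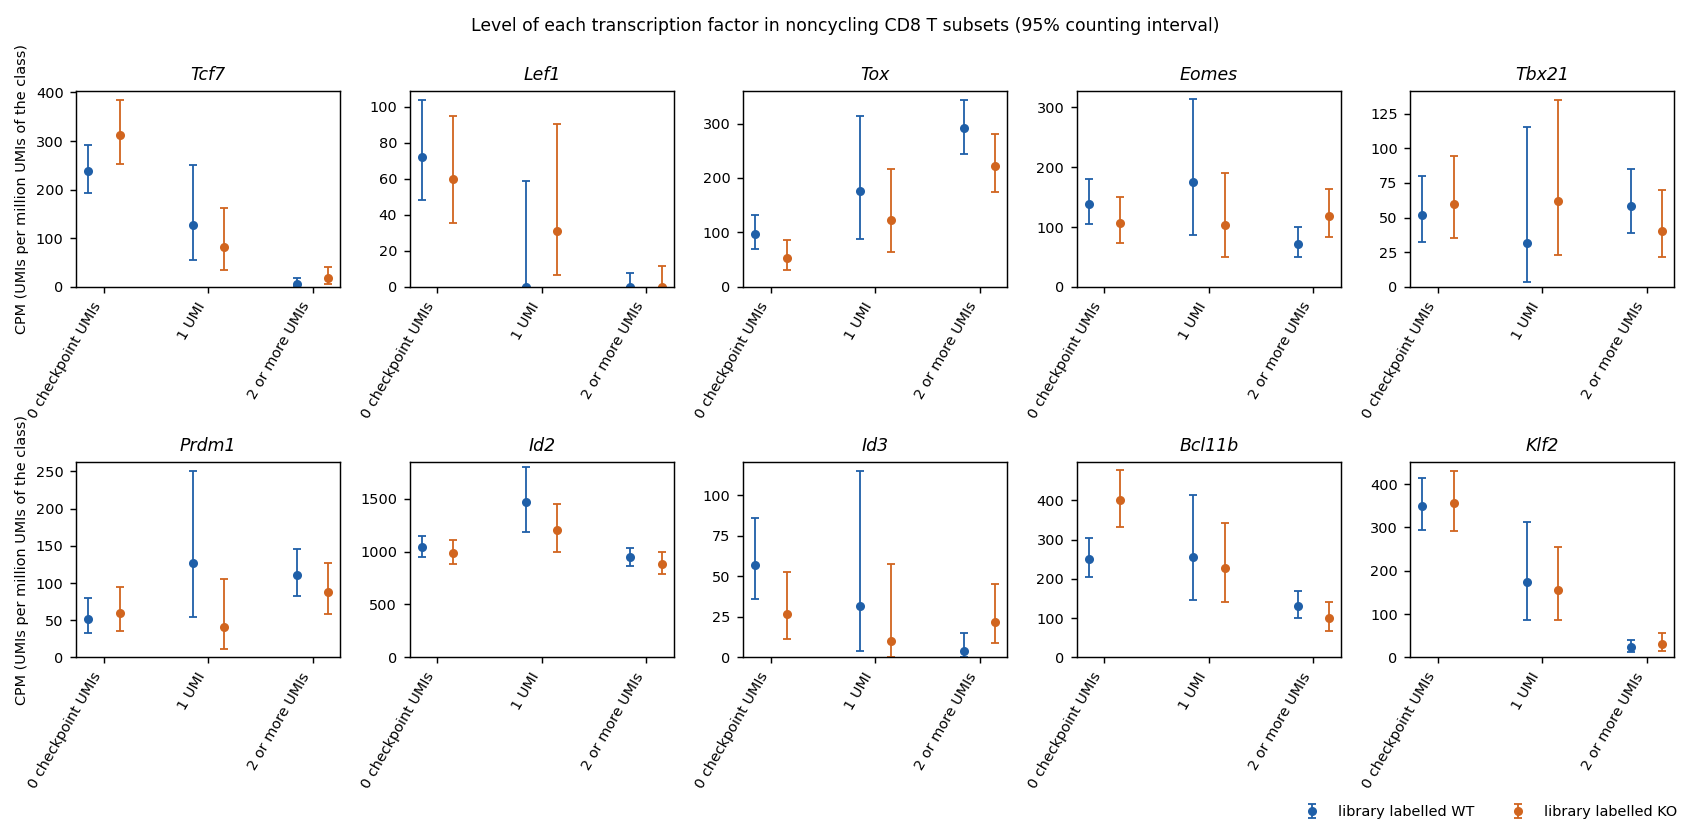
Level of each factor (vertical axis, CPM, linear, a separate scale per gene) in noncycling CD8 T cells with 0, 1, or 2 or more checkpoint receptor UMIs (horizontal axis) for the library labelled WT (blue) and that labelled KO (orange), 1 point per library with its 95% Poisson interval. Tcf7, Lef1 and Klf2 fall to 31.3 CPM or less in the checkpoint subset of both libraries, where Tox is at its highest, 291 and 222 CPM.

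The edgeR test between the checkpoint and checkpoint-negative subsets, a comparison chosen after the data were seen, called 5 of 9 members tested, 1 higher and 4 lower, against 6.24% of 4889 genes called higher, 5.69% lower and 11.9% in either direction. Tox differed by 1.78 ± 0.25 on the log2 scale (SE, edgeR adjusted p = 4.05e-05). Tcf7 differed by −4.49 ± 0.36 (edgeR adjusted p = 1.51e-08), Klf2 by −3.69 ± 0.28 (edgeR adjusted p = 8.72e-09) and Bcl11b by −1.40 ± 0.25 (edgeR adjusted p = 0.000737). Lef1 passed the edgeR test at an adjusted p of 8.07e-05. It had no UMI in the checkpoint subset and met the filter on low counts only through checkpoint-negative cells, so its counts given above carry the result. The calls of Tcf7, Lef1, Tox and Klf2 held in every alternative in which they could be computed. That of Bcl11b was lost after thinning (edgeR adjusted p = 0.275). Prdm1 had a log2 difference of 0.87 ± 0.32 and did not pass (edgeR adjusted p = 0.0845). Id3 fell under the filter on low counts and was not tested. It had an adjusted p under 4 alternatives, was lower in the checkpoint subset in each, with edgeR adjusted p from 0.0251 to 0.105, and passed in 2 of them, without the filter and with stricter cycle gates.

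Genes outside the gate and the 10 members moved with them. Of 6 memory and naive factors tested by edgeR 3 were lower in the checkpoint subset, Satb1 (log2 −3.72), Foxp1 (−1.95) and Foxo1 (−1.82), the last of which is known to maintain Klf2 expression. Of 14 effector and exhaustion factors 4 were higher, Nr4a3 (3.19), Nr4a2 (3.07), Ikzf2 (1.73) and Bhlhe40 (1.30), and 1 was lower, Maf (−1.05). Of 4 homing and memory surface genes 3 were lower, S1pr1 (−5.04, on 2 and 1 UMIs in checkpoint cells), Il7r (−2.77) and Itgb7 (−2.34). Effector outputs were higher in 4 of 8 cases, including Prf1 (3.40) and Gzmb (3.14), and lower in 3, including Gzma (−4.61) and Cxcr3 (−2.18). The E proteins that Id2 and Id3 bind, Tcf3, Tcf4 and Tcf12, gave no edgeR call in any of the 4 class comparisons, apart from Tcf4 in CD8 T against NK cells (−1.81).

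Tcf7 and Tox were seldom seen in the same CD8 T cell. Among CD8 T cells of the library labelled WT, a Tox UMI was seen in 7 of 66 cells with a Tcf7 UMI and in 92 of 194 without. In the library labelled KO it was seen in 4 of 71 and in 49 of 175. With 1000 UMIs per cell the counts were 1 of 31 against 42 of 219 and 1 of 34 against 22 of 187. Klf2 ran the other way, at 34 of 66 against 50 of 194 and 40 of 71 against 42 of 175. Lef1 was seen in 16 of 66 Tcf7-positive cells against 10 of 194 in the library labelled WT and in 8 of 71 against 13 of 175 in that labelled KO. Id3 was in 10 of 66 against 7 of 194 and in 5 of 71 against 6 of 175. In CD4 T cells a Tox UMI was seen in 6 of 22 cells with Tcf7 and 5 of 42 without in the library labelled WT, and in 3 of 16 and 9 of 79 in that labelled KO. A gene without a UMI in a cell may still be expressed, so the shares describe detection.

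**Figure D3:**
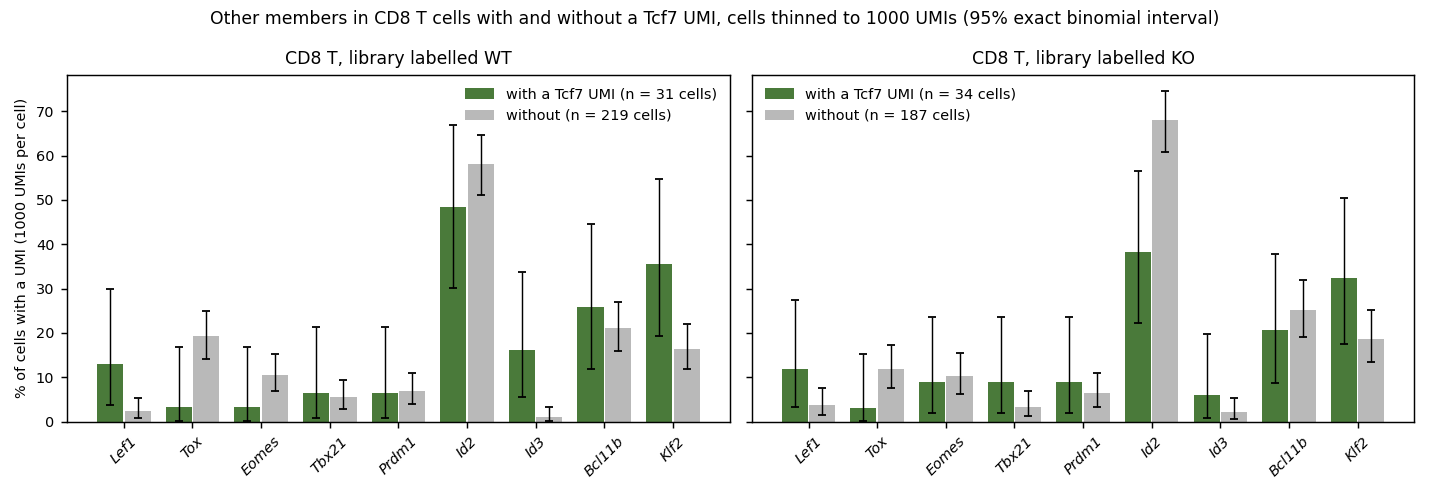
Share of CD8 T cells with a UMI of each other factor (vertical axis, percent of cells, each thinned to 1000 UMIs) among cells with a Tcf7 UMI (green) and without (grey), with 95% exact binomial intervals, for the library labelled WT (left) and that labelled KO (right). Tox is seen in 1 of 31 and 1 of 34 Tcf7-positive cells against 42 of 219 and 22 of 187 others, while the bars of Lef1, Id3 and Klf2 are higher with Tcf7 in both libraries.

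The genes whose levels were most like each member's were named from Pearson's r of log2(CPM + 10) over 16 sums, 8 classes in 2 libraries, among 9765 genes. Tcf7 was followed by Kbtbd11 (r = 0.956) and Crot, Tox by the T cell receptor constant gene Trbc2 (0.979) and the receptor kinase Zap70 (0.971), Tbx21 by Fasl (0.984) and Il2rb (0.981), Eomes by the NK receptors Klrc2 (0.972) and Klre1 (0.952), and Bcl11b by Cxcr6 (0.991) and Camk4. Among the members themselves Lef1 and Tbx21 were most alike (r = 0.932). The sums share their libraries, and the contrast of lymphocytes with myeloid cells enters every value.

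The libraries labelled KO and WT were then compared within each class, which asks how the factors stood in lymphocytes of tumours whose myeloid cells were to lack Mettl3. With 1 pooled library per genotype there is no test, and a ratio compares these libraries and not the genotypes. A member was counted past the fold where its CPM differed by at least 1.5-fold and the class held at least 20 of its UMIs over both libraries. In CD8 T cells 0 of 10 members were past the fold, against 17.7% of all genes in either direction (9.11% higher, 8.62% lower). The largest ratio was that of Tox, lower in the library labelled KO at a log2 ratio of −0.54 (95% counting interval −0.90 to −0.18), just short of the limit. Tcf7 was at 0.41 (0.01 to 0.81) and Bcl11b at 0.35 (0.04 to 0.66), and the other members lay between −0.36 and 0.09 with intervals that included 0.

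The checkpoint share, lower in the library labelled KO before thinning, is given above. The summed level of Pdcd1 in CD8 T cells was at a log2 ratio of −0.24 (−0.59 to 0.10), that of Lag3 at −0.07 (−0.35 to 0.21) and that of Havcr2 at 0.03 (−0.60 to 0.64). Within the checkpoint subset alone the log2 ratio of Tox was −0.39 (−0.82 to 0.03), and in checkpoint-negative cells it was −0.86 (−1.80 to 0.01), on 39 and 16 UMIs. In cycling T cells it was −0.49 (−0.74 to −0.24), so that the ratio was below 0 in each of these classes, with an interval that excluded 0 in cycling T cells. In the checkpoint subset Eomes was higher in the library labelled KO, at a log2 ratio of 0.74 (0.03 to 1.45), while in checkpoint-negative cells it was at −0.38 (−1.06 to 0.27). In checkpoint-negative cells Bcl11b was higher at 0.67 (0.28 to 1.07), on 101 and 120 UMIs, and Id3 was at −1.10 (−2.47 to 0.11), on 23 and 8. Of the related lists in CD8 T cells, 3 of 8 memory and naive factors were at least 1.5-fold higher in the library labelled KO, Myb at 0.94 (−0.15 to 2.08), Foxp1 at 0.81 (0.42 to 1.20) and Bach2 at 0.62 (−0.36 to 1.61). Of 5 homing and memory surface genes 3 were higher, Slamf6 at 0.95 (0.01 to 1.93), S1pr1 at 0.68 (0.12 to 1.25) and Il7r at 0.64 (0.31 to 0.97), and 1 lower, Ccr7 at −0.60 (−1.64 to 0.37). Of 8 effector outputs 1 was higher, Gzmb at 0.94 (0.79 to 1.09), and Prf1 was higher by less than 1.5-fold at 0.45 (0.25 to 0.65). Of 15 effector and exhaustion factors 1 was lower, Ikzf2 at −0.79 (−1.38 to −0.24), among inhibitory receptors 1 of 6 was lower, Ctla4 at −1.56 (−2.48 to −0.72), and of 3 E proteins 1 was lower, Tcf4 at −0.88 (−1.98 to 0.14) on 29 and 12 UMIs.

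CD4 T cells held the largest Tcf7 difference among the noncycling classes. Tcf7 had 35 UMIs in 64 cells of the library labelled WT and 24 in 95 cells of that labelled KO, a log2 ratio of −1.38 (−2.20 to −0.59). A Tcf7 UMI was found in 34.4% (22.9 to 47.3) against 16.8% (9.94 to 25.9) of cells, at median depths of 1967 and 2051 UMIs. At 1000 UMIs per cell the shares were 28.3% and 10.2%. Tox was past the fold too, at −0.65 (−1.78 to 0.50), on 14 and 16 UMIs. These 2 of 7 members tested were lower and 0 higher, against 13.2% of all genes lower, 14.9% higher and 28% past the fold in either direction. No CD4 T cell with a Foxp3 UMI held Tcf7, in 10 and 8 cells, and without them the log2 ratio of Tcf7 was −1.54 (−2.35 to −0.75). Effector outputs went both ways in these cells. Of 6 tested 3 were higher in the library labelled KO, Gzma, a granzyme of killer lymphocytes, at 4.62 (2.72 to 7.69) on 2 and 88 UMIs, Ifng at 2.11 (0.97 to 3.49) and Cxcr3 at 0.79 (−0.23 to 1.92), and 1 was lower, Gzmb at −0.75 (−1.35 to −0.15). NK markers summed to 53.6 CPM in the library labelled KO against 0, and their part in the Tcf7 difference was not tested. Of 4 inhibitory receptors Lag3 was higher at 1.37 (0.24 to 2.68) and Ctla4 lower at −0.91 (−1.46 to −0.37). Of 12 effector and exhaustion factors 3 were higher and 4 lower in the library labelled KO, led by Ikzf2 at a log2 ratio of −1.01 (−1.67 to −0.36), Nfil3 at 1.01 (−0.47 to 2.79), Ikzf3 at −0.97 (−2.29 to 0.34) and Runx3 at −0.87 (−1.46 to −0.28). Of 5 memory and naive factors 1 was higher, Foxo1 at 0.62 (−0.60 to 2.0).

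In NK cells 1 of 7 members tested was past the fold, against 24.9% of all genes in either direction, 13.5% higher and 11.5% lower. It was Prdm1, higher in the library labelled KO at a log2 ratio of 0.80 (−0.69 to 2.58) on 5 and 18 UMIs. Eomes was lower, by less than 1.5-fold, at −0.47 (−0.94 to −0.01), and Tbx21 was at 0.45 (−0.32 to 1.29). Of 12 effector and exhaustion factors 1 was higher, Ikzf2 at 0.64, and 2 lower in NK cells, Nr4a1 at −1.05 (−2.08 to −0.03) and Maf at −0.67 (−1.32 to 0.00033), and of 7 memory and naive factors 1 was higher, Ikzf1 at 0.93 (0.30 to 1.61). Of 7 effector outputs 2 were lower in NK cells, Cxcr3 at −1.11 (−1.98 to −0.24) and Ifng at −0.81 (−1.69 to 0.08). The E protein gene Tcf12 was lower at −0.99 (−1.92 to −0.05), and Cd160, the 1 inhibitory receptor with enough UMIs, was higher at 1.53 (0.15 to 3.26). In cycling T cells 2 of 10 members were past the fold and both were lower, against 7.04% of all genes lower, 7.41% higher and 14.5% in either direction. Tcf7 had 18 and 5 UMIs, a log2 ratio of −2.25 (−4.03 to −0.76), and Id3 had 12 and 10, a ratio of −0.66 (−2.03 to 0.67). Of the 18 Tcf7 UMIs 6 lay in the 10 cycling cells with Cd4 of the library labelled WT, and the 19 such cells of the other library held 0. In cycling CD8 cells alone Tcf7 was at 10 and 1 UMIs, a log2 ratio of −3.54 with a counting interval of −8.98 to −0.72. Bcl11b was higher in cycling T cells of the library labelled KO, by less than 1.5-fold, at 0.46 (0.13 to 0.79). None of 7 memory and naive factors was past the fold in cycling T cells, and of 15 effector and exhaustion factors 1 was higher, Nfatc2 at 1.05 (0.27 to 1.89), and 1 lower, Maf at −0.62 (−0.93 to −0.31). Of 5 homing and memory surface genes S1pr1 was lower there at −1.50 (−3.03 to −0.12) and Ccr7 higher at 0.84 (−0.22 to 2.01), and of 8 effector outputs Ccl5 was lower at −0.80 (−0.91 to −0.70) and Gzma higher at 0.63 (−0.15 to 1.46).

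**Figure D4:**
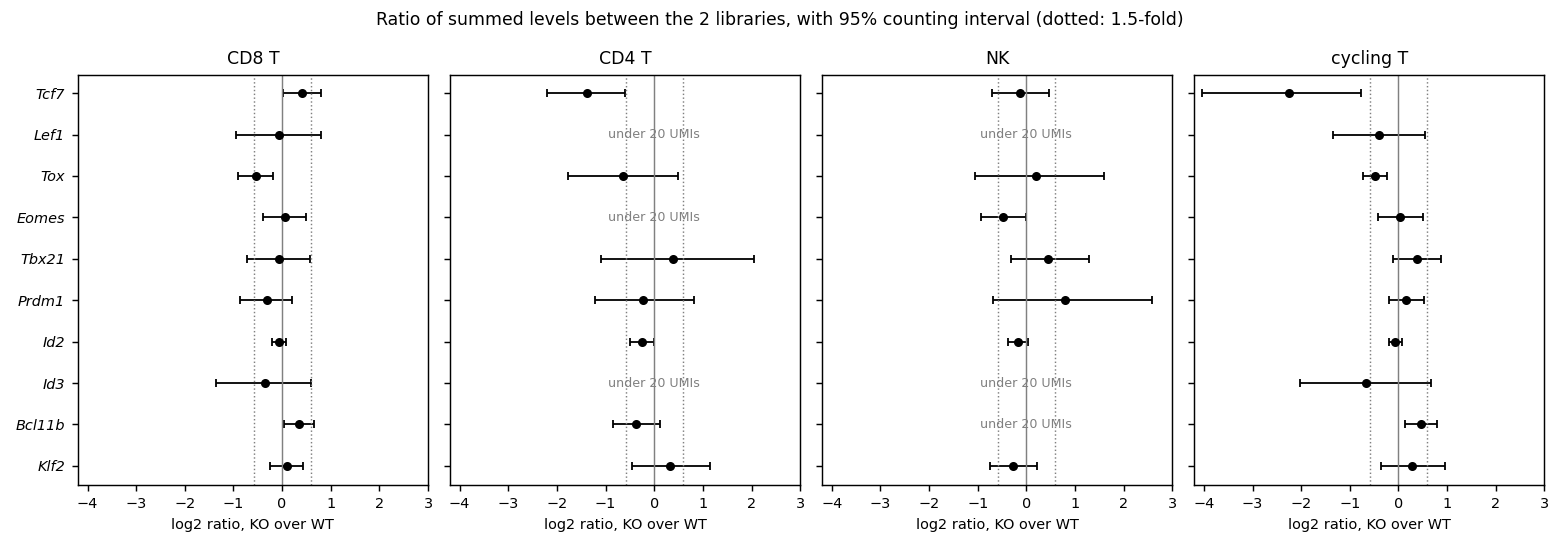
Log2 ratio of the CPM in the library labelled KO over that in the library labelled WT (horizontal axis) for each factor (vertical axis) in CD8 T, CD4 T, NK and cycling T cells, with 95% counting intervals, dotted lines at 1.5-fold, and the words under 20 UMIs where the count was too low. Points beyond the dotted lines are Tcf7 and Tox in CD4 T cells, Prdm1 in NK cells and Tcf7 and Id3 in cycling T cells, of which only the intervals of Tcf7 exclude 0.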

How the data were processed

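Live CD45+ cells sorted from B16 tumours were profiled by droplet 3′ single-cell RNA sequencing, 1 library per genotype. The authors processed the reads with Cell Ranger 4.0.0 against mm10, per the file header and the labels, and deposited UMI counts as 1 matrix of both libraries, used here as deposited. Barcodes were assigned to libraries by the deposited table of library names. Cells needed at least 200 genes and at most 10% mitochondrial UMIs. Scrublet in scanpy 1.11.5 marked 1 cell per library, which is too few to have worked, so its top scorers (0.8% per 1000 cells, 256 and 532 cells) were removed. Classes were gated on marker UMIs without clustering. T, NK and cycling gates excluded barcodes with over 0.15% macrophage, 0.5% granulocyte or 0.1% melanoma marker UMIs, or more than 1 UMI of B or dendritic markers.

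CPM were computed from summed UMIs. Class differences were tested with edgeR 4.0.16 (quasi-likelihood, TMM, filterByExpr, Benjamini-Hochberg adjustment over all genes), on 8 sums for the classes and 6 for the CD8 T subsets, with the library as a block. The block takes up the difference between the libraries. The p-values therefore measure how much class differences varied between 2 pooled libraries of different genotype, with the spread estimated over all 8 or 6 sums. DESeq2 1.42.0 was an alternative. The edgeR test was checked on simulated data, where it missed most genes changed 2-fold, so a gene that was not called may still differ. Ratios between libraries had no test: exact conditional 95% intervals are given. The 10 genes and the related lists were chosen with earlier results of these data known, and all members are named. Of the related lists, up to 4 genes past the threshold or fold are named, those of largest difference first. Promoter windows came from RefSeq (GRCm38.p6), gene positions from GENCODE M21. The alternatives were other gate limits, doublets kept, thinning to 1000 UMIs, other count limits, no filter and no library block. A planned comparison of CD8 T subsets and 1 gene of a related list are not reported here, and subsets gated on checkpoint receptors alone, chosen after the data were seen, took that comparison's place. The study's comparison of cells as replicates was not used.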

Additional observations from a re-analysis of the deposited data

Results flagged for a closer look

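The values here are log2 differences between classes that had opposite signs in the 2 libraries. None of these differences between libraries was tested, since there was 1 library per genotype. Tcf7 in CD8 T over CD4 T cells was at −0.89 in the library labelled WT and 0.91 in that labelled KO, and it was the only one whose counting intervals both excluded 0. Id3 in the same comparison was at 0.26 and −0.72. Lef1 in CD8 T over NK cells was at −0.68 and 0.30. In cycling T over CD8 T cells Tox was at −0.018 and 0.030, Tbx21 at −0.43 and 0.015, and Prdm1 at −0.13 and 0.35. In checkpoint over checkpoint-negative CD8 T cells Eomes was at −0.97 and 0.16, and Tbx21 at 0.17 and −0.56.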

How the results depend on the processing

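No paired analysis was possible between the genotypes because the labels give no replicate numbers and there was 1 library per genotype, and leaving out a library leaves no residual degrees of freedom. The class comparisons had the library as a block, and without it the call of Id2 in CD8 T over NK cells was lost and the count there went from 5 to 4. Of 77 recomputed counts of members, 60 stayed within 1.5 times the reported value. Of 160 shares of cells with a UMI 60 left their counting interval, of 308 ratios between libraries 14 did, and of 350 class differences 13 lost and 8 gained a call, not counting Id3 between the CD8 subsets, which was tested only under alternatives and passed in 2 of 4. The count past 1.5-fold in CD8 T cells, 0 as reported, was 1 with doublets kept, 1 after thinning and 2 as a mean of per-cell CPM. In CD4 T cells it went from 2 to 1 with at least 50 UMIs. In NK cells it went from 1 to 2 with stricter lineage gates or per-cell CPM, 4 with barcodes of other lineages kept and 0 with at least 50 UMIs. In cycling T cells it went from 2 to 1 with stricter cycle gates or thinning, and 0 with at least 50 UMIs or with CD8 cells only (chosen after seeing the data). With CD8 cells only, Tcf7 (10 and 1 UMIs) and Id3 (7 and 5) fell under the limit of 20 UMIs. Their log2 ratios there were −3.54 and −0.70. The edgeR counts went from 2 to 1 in CD8 over CD4 T cells after thinning, from 5 to 3 with DESeq2 over NK cells, from 7 to 4 with either in cycling over CD8 T cells, and from 5 to 3 after thinning between the CD8 subsets. Of 308 ratios between libraries 2 reversed: Tox in CD4 T cells, 0.0604 with other lineages kept, and Id3 in cycling T cells, 0.0335 with stricter cycle gates. Of 350 class differences 13 reversed, and these had not passed the edgeR test. With barcodes of other lineages kept, Tcf7 in CD8 over CD4 T cells was −0.0255, Prdm1 −0.10, Lef1 over NK cells 0.61, Tox and Prdm1 in cycling T cells −0.255 and −0.107, and Tbx21 and Id2 in the checkpoint subset 0.36 and 0.0898. After thinning, Tcf7 and Prdm1 in CD8 over CD4 T cells were −0.29 and −0.30. With doublets kept Prdm1 in CD8 over CD4 T cells was −0.0379. With stricter lineage gates Tox in cycling T cells was −0.0711, and with stricter cycle gates Tox was −0.0338. With no filter on low counts Lef1 over NK cells was 0.00698. The cause of these changes was not tested. Depth limits Lef1, Id3 and Eomes in CD4 T cells and Lef1, Id3 and Bcl11b in NK cells, each under 20 UMIs over both libraries.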

Other observations

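T cells without a CD4 or CD8 UMI, 164 in the library labelled WT and 233 in that labelled KO, entered no comparison above. They held 189 and 215 CPM of Tcf7 and 57.7 and 52.8 CPM of Lef1, above the 114 and 151 CPM and the 30.8 and 29.3 CPM of CD8 T cells. Klf2 was at 305 and 297 CPM, and Tox at 71.5 and 43.0 CPM. Between the libraries Prdm1 was at a log2 ratio of 0.71 (0.01 to 1.43) and Tbx21 at 0.92 (−0.07 to 1.99), both higher in the library labelled KO, Tox was at −0.73 (−1.59 to 0.10), and Id2 was at −0.01 (−0.19 to 0.17). Their median depth, 1845 and 1589 UMIs, was below that of CD8 T cells, and a missed Cd4 or Cd8 transcript cannot be told apart from its absence. NK markers summed to 224 and 192 CPM in them, above the CD8, CD4 and cycling T classes, and their part in these levels was not tested. Dendritic cells held Tcf7 at 21.6 and 22.8 CPM, with up to 6 UMIs in a cell, and B cells held Id3 at 230 CPM (labelled WT) and 77.1 CPM (labelled KO).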
